A study of Mus musculus with 10 samples.

Results

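The endothelin system of the mouse aorta was examined through 6 genes, chosen by symbol from the 55453 symbols of the deposited count table: the ligands *Edn1* and *Edn3*, the receptors *Ednra* and *Ednrb*, and the converting enzymes *Ece1* and *Ece2*. All 6 had counts, and 5 of them were among the 14614 genes with enough counts to be tested, whereas *Ece2* was not. RNA came from whole aortae of male C57BL/6 mice, 5 young mice aged 14.5 weeks and 5 old mice aged 92.5 weeks, with 1 library per mouse and no transgene, drug or other treatment in either group. Aortae were stripped of periadventitial fat, and young and old mice were killed on the same occasion. Each library held the RNA of endothelium, media and adventitia together, so that the cell of origin of a transcript could not be read from it.

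Endothelins are short vasoactive peptides cut from longer precursors. Furin-type proteases first release an inactive big endothelin, which the membrane metalloproteases endothelin-converting enzyme 1 and 2 turn into the active peptide. In the vessel wall, endothelin-1 made by endothelial cells constricts smooth muscle mainly through the ETA receptor, whereas the ETB receptor of endothelial cells is linked to nitric oxide and prostacyclin release and removes endothelin-1 from the circulation.

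Between 19640401 and 22886153 reads were counted on genes per library. Levels below are normalized counts, which are read counts divided by a size factor for each library, and are given as mean ± SD over 5 mice unless a single mouse is named. Genes were ranked by level only as TPM, which divides the counts by exonic length and scales them to the same total in every library. A level relative to other genes, given as a log2 difference of normalized counts, was compared only between ages, since its size within an age also depends on gene length. Old and young aortae were compared across all genes with edgeR's quasi-likelihood test, and calls of higher or lower required an adjusted p (Benjamini-Hochberg) under 0.05. The median log2 fold change of all tested genes was 0.0034.

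Of the 5 tested endothelin genes, 2 were called lower in old aortae (*Edn1* and *Ece1*), 0 were called higher and 3 were not called. Over all tested genes, 11.5% were called in either direction, 4.99% of them lower and 6.48% higher. The young and old ranges did not overlap for *Edn1* and *Ece1*, and for the other members they did. Across all tested genes, 9.92% had groups without overlap, and 4.55% had no overlap with old aortae lower. The median log2 fold change of the 5 genes was -0.48, with 4 below 0 and 1 above.

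**Figure D1:**
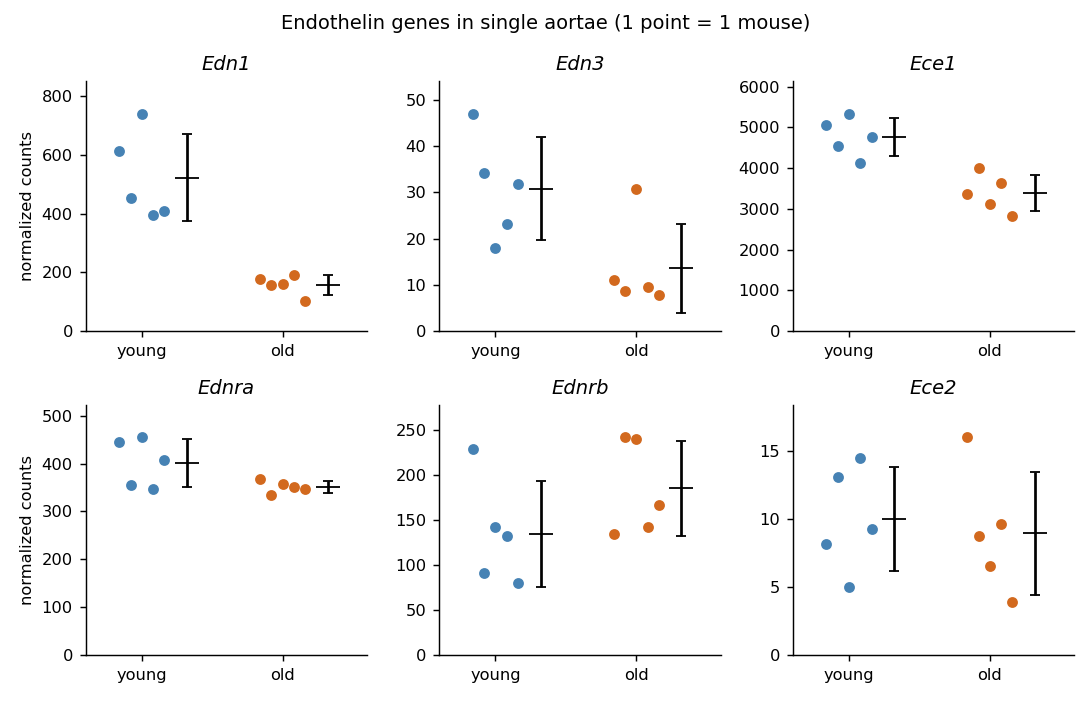
Normalized counts of the 6 endothelin genes in each aorta, with the age group on the horizontal axis, 1 point per mouse, and a bar for the mean and its SD over 5 mice; each panel has its own vertical axis from 0. All old points lie below all young points for *Edn1* and *Ece1*, and the ages overlap for *Edn3*, *Ednra*, *Ednrb* and *Ece2*.

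*Edn1*, the precursor of endothelin-1, fell to 0.304 of its young level by the fitted fold. Its position on GRCm38 is chromosome 13, 42301476 to 42307990, on the plus strand. The young mice, from replicate 1 to 5, had 614, 455, 741, 397 and 409.8 normalized counts. The old mice had 178, 157, 160.3, 193 and 104. The lowest young mouse thus stood above the highest old mouse. Both the mean and the SD were larger in young mice, at 523 ± 149 against 158 ± 33.6. The edgeR log2 fold change was -1.72 (SE 0.21, 95% interval -2.17 to -1.26, Benjamini-Hochberg adjusted p = 0.000445). The reads behind these values numbered 2607 in young and 801 in old aortae. An antisense gene, Gm47118, overlaps 1.64% of the exonic bases of *Edn1* and had 0 counts in all libraries.

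The 2 stretches around the annotated start of *Edn1* are shown because the gene is a known target of AP-1 and GATA factors, and AP-1 genes are among those described further on. Both come from the RefSeq promoter window on GRCm38.p6, which runs from 250 bases before to 50 bases after the start, and are read on the plus strand, 5′ to 3′, with the motif in capitals. The first holds GATAA on the minus strand (TTATC as printed) and lies at chr13:42301466-42301495. The second holds the AP-1 variant TGACTAA and lies at chr13:42301496-42301525. The annotated start falls inside the first stretch, and the second lies downstream of it. Where transcription of *Edn1* starts in these aortae was not examined.

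Edn1 GATA stretch: ttcctctagagccgggtcTTATCtctggct
Edn1 AP-1 stretch: gcacgttgcctgtgggTGACTAAtcacaca

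With positions counted from 1 at the annotated start, TGACTAA begins at 37 and GATAA at 9. Among 32851 RefSeq windows of the same length, searched on both strands, 2.35% held TGACTAA and 25.4% held GATAA. The consensus AP-1 letters TGANTCA were in 7.81% of all windows and in none of the members' windows. No window of *Edn3*, *Ednra*, *Ednrb*, *Ece1* or *Ece2* held any of these 3 motifs. Other motifs were searched too and are not marked. Among them, the hypoxia response core ACGTG begins at 22 on the minus strand of the *Edn1* window, and 19.6% of all windows held it. Windows of *Ece1*, *Ece2* and *Ednrb* also held some of the other motifs searched. Such matches describe the letters only, and no binding was measured.

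The values of endothelial markers stand beside those of *Edn1*, which in the vessel wall is chiefly an endothelial gene. In RNA from a whole tissue, fewer endothelial cells and less RNA per endothelial cell cannot be told apart. Of 20 endothelial markers, all tested, 3 were called lower (*Tek*, *Icam2* and *Ptprb*) and 0 higher, and the median log2 fold change was -0.46. These 3 are 15% of the markers. Over all tested genes, 11.5% were called in either direction and 4.99% lower. The fold change was below 0 for 18 of them and above 0 for *Flt1* (0.24) and *Erg* (0.14), neither of which was called. *Tek*, the angiopoietin receptor TIE2, had 1749 ± 482 in young and 950.1 ± 274 in old aortae (log2 fold change -0.87, edgeR adjusted p = 0.0381). The number of these markers called lower was 12 without old replicate 2, 9 by DESeq2, 5 by limma-voom, 1 without young replicate 4, 0 without the filter on low counts, and 0 when young replicate 1, 3 or 5 or old replicate 1, 3 or 5 was left out. The summed level of the 20 markers ranged from 37894 to 59992 in young and from 23374 to 43879 in old mice, and these ranges overlapped. The highest of these old sums, in old replicate 2, was above those of young replicates 2, 4 and 5, and that mouse had 157 normalized counts of *Edn1*. The part of endothelial content in the level of *Edn1* was not tested.

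The level of *Edn1* relative to the endothelial markers was lower in old aortae. The log2 level of *Edn1* minus the mean log2 level of the 20 markers was -1.30, -1.21, -1.04, -1.47 and -1.32 in the young mice. In the old mice it was -2.21, -3.10, -2.09, -2.24 and -2.91. The groups did not overlap, and the difference was -1.24, a fold of 0.423 (exact two-sided permutation p = 0.0079, the smallest that 5 against 5 mice allow). The mean log2 level of the markers themselves differed by -0.47 (exact permutation p = 0.0635). Against each marker alone, a reference chosen after the data were seen, the difference ranged from -1.92 (*Flt1*) to -0.53 (*Emcn*). The groups did not overlap for 16 of the 20 markers, and the exact permutation p was largest for *Emcn* (0.198). All 20 comparisons share the same *Edn1* values, whose ages did not overlap by themselves. They are thus not independent of each other, and their number adds no support.

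*Edn3* encodes endothelin-3, the ligand that binds ETB far better than ETA and is best known from the development of neural crest cells. The gene is on chromosome 2, 174760619 to 174784042, plus strand. It was a weakly expressed gene here, with 153 reads in all young and 70 in all old aortae. Normalized counts were 47.0, 34.2, 17.9, 23.2 and 31.8 in the young mice. They were 11.0, 8.72, 30.8, 9.64 and 7.78 in the old mice. All old mice but replicate 3 were below all young mice, and that mouse stood within the young range. The means were 30.8 ± 11.2 and 13.6 ± 9.68, and the gene was not called (log2 fold change -1.15, SE 0.39, interval -1.999 to -0.30, edgeR adjusted p = 0.0769). Without old replicate 3 the log2 fold change was -1.71 (edgeR adjusted p = 0.00662), and with all mice DESeq2 and limma-voom gave adjusted p-values of 0.0431 and 0.0466. Old replicate 3 also had the lowest endothelial sum (23374) and the highest sum of 10 macrophage markers (23520.1, against 8649 to 14114 in the other mice), and their part in its *Edn3* value was not tested. *Edn2*, the remaining endothelin gene and not a member of the set, had 1 read in 1 young and 1 read in 1 old library.

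*Ednra* encodes the ETA receptor, which couples to Gq in smooth muscle and mediates constriction. It lies on chromosome 8, 77663031 to 77724464, minus strand. The young mice had 445, 354, 455, 346 and 408 normalized counts. The old mice had 368, 333, 358, 352 and 346. Old values kept within a narrow band that the lower young values shared, with means of 401 ± 50.2 and 351 ± 12.8. The log2 fold change was -0.18 (SE 0.09, interval -0.37 to 0.01, edgeR adjusted p = 0.1997), so that a fold below 0.773 lay outside the interval. Relative to 12 smooth muscle markers the log2 level of *Ednra* was -6.72 ± 0.31 in young and -6.84 ± 0.05 in old aortae, a difference of -0.12 (exact permutation p = 0.421). The smooth muscle markers had a median log2 fold change of -0.06, with 1 of 12 called higher (*Smtn*, smoothelin, 0.29, edgeR adjusted p = 0.0217) and 0 lower. That is 8.33% of them, against 11.5% of all tested genes. *Smtn* lost its call without young replicate 3 or 5 or old replicate 5 (edgeR adjusted p from 0.0551 to 0.0610), and 4 of the 12 markers were called lower without young replicate 1.

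*Ednrb* encodes the ETB receptor and was the only member with a positive log2 fold change. It lies on chromosome 14, 103814625 to 103844402, minus strand. The young mice had 229, 90.6, 143, 132 and 79.9 normalized counts. The old mice had 135, 242, 240.5, 142 and 167. The ages overlapped because young replicate 1 lay near the top of the old range, and the other young mice reached at most 143, which exceeded the 2 lowest old values. The means were 135 ± 59.0 and 185 ± 52.5 (log2 fold change 0.47, SE 0.28, interval -0.16 to 1.09, edgeR adjusted p = 0.330). Without young replicate 1 the log2 fold change was 0.74 (edgeR adjusted p = 0.0536).

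Cells other than endothelium also use *Ednrb*, among them Schwann cells and melanocytes, so their markers were read beside it. Young replicate 1 had the highest sum of 10 Schwann cell markers (2135, against 1086 to 1852 in all other mice) and the highest sum of 8 adipocyte markers (21945, against 4759.8 to 11679). Of the Schwann cell markers, 9 were tested, 1 was called higher and 0 lower, with a median log2 fold change of 0.31. The share called was 11.1% of those tested, against 11.5% of all tested genes. The number called higher was 4 without young replicate 1 and 0 without young replicate 2, 4 or 5 or old replicate 3 or 5. Their sums ranged from 1086 to 2135 in young and from 1485 to 1852 in old aortae. Of 8 melanocyte markers, *Slc45a2* had no read in any library, 5 others were too low to test (*Dct*, *Tyr*, *Tyrp1*, *Pmel* and *Trpm1*), *Mitf* was not called and *Mlana* was called higher (12.8 ± 2.36 in young and 53.5 ± 13.3 in old aortae, log2 fold change 2.05, edgeR adjusted p = 0.000165). The sums over the 8 genes, which *Mitf* dominated, ranged from 434 to 697 in young and from 545 to 619 in old aortae. Their part in the level of *Ednrb* was not tested.

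Relative to the endothelial markers, *Ednrb* was higher in old aortae. The log2 level minus the marker mean was -2.72, -3.53, -3.42, -3.05 and -3.67 in young mice. It was -2.61, -2.47, -1.51, -2.68 and -2.22 in old mice, which did not overlap the young. The difference was 0.98, a fold of 1.97 (exact two-sided permutation p = 0.0079), and it combined a lower marker mean with a higher mean of *Ednrb*, neither of which passed its own test. The gap between the groups was narrow, from -2.72 in young replicate 1 to -2.68 in old replicate 4. The log2 level of *Ednrb* relative to *Ednra* was -1.66 ± 0.53 in young and -0.97 ± 0.44 in old aortae, a difference of 0.70 with overlap between the groups (exact permutation p = 0.0714). It was 0.87 without young replicate 1 (exact permutation p = 0.0317).

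**Figure D2:**
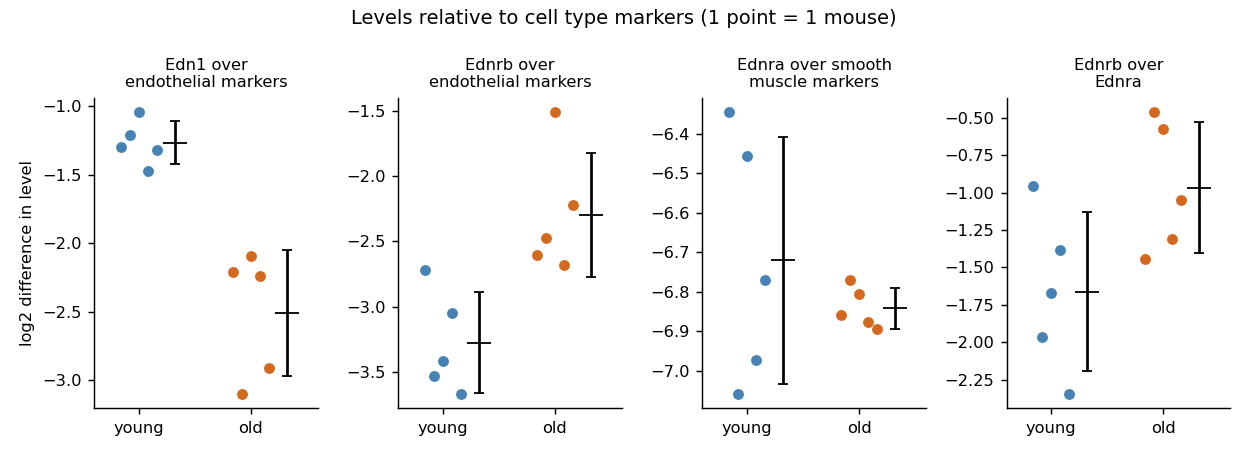
Log2 level of a receptor or of *Edn1* minus a reference in each aorta, with the age group on the horizontal axis, 1 point per mouse and a bar for the mean and SD over 5 mice; the references are the mean log2 level of 20 endothelial markers, that of 12 smooth muscle markers, and *Ednra*, and each panel has its own axis. Old mice lie below young mice for *Edn1* (difference -1.24) and above them for *Ednrb* over endothelial markers (0.98), and overlap them in the remaining panels.

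*Ece1*, the enzyme that cuts big endothelin-1 to the active peptide, was the most abundant member and fell with age. It lies on chromosome 4, 137862237 to 137965229, plus strand. The young mice had 5048, 4549, 5338, 4132 and 4765 normalized counts. The old mice had 3376, 4004, 3118, 3626 and 2830.2. The highest old mouse, replicate 2, was close to the lowest young mouse, replicate 4, and no values crossed. With means of 4767 ± 463 and 3391 ± 453, the log2 fold change was -0.48 (SE 0.10, interval -0.69 to -0.28, edgeR adjusted p = 0.00599), a fold of 0.715. The median log2 fold change was -0.46 for the endothelial markers and -0.06 for the smooth muscle markers. No level of *Ece1* relative to markers was computed, and the part of tissue makeup in its level was not tested.

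*Ece2*, a related converting enzyme that works at acidic pH, lies on chromosome 16, 20629828 to 20646485, plus strand. It had 50 reads in all young and 45 in all old aortae, which is below the filter on low counts. Single mice had 4.99 to 14.5 normalized counts when young and 3.89 to 15.99 when old, with means of 9.99 ± 3.83 and 8.95 ± 4.52. No difference was detectable at this depth (log2 fold change -0.16, SE 0.42, edgeR adjusted p = 0.874 without the filter). The annotated gene Gm49333 overlaps 57.5% of the exonic bases of *Ece2* on the same strand and was listed with 0 counts throughout, so the counts of *Ece2* are uncertain.

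Scaled by exonic length, the members spanned a wide range of levels, and the order of their medians was the same at both ages. In young aortae the median was 144 TPM for *Ece1*, 34.0 for *Edn1*, 11.9 for *Ednra*, 4.99 for *Ednrb*, 1.24 for *Edn3* and 0.289 for *Ece2*. No pair of neighbours in this order overlapped between their lowest and highest young mice. In old aortae the medians were 101 TPM for *Ece1*, 11.9 for *Edn1*, 10.4 for *Ednra*, 6.31 for *Ednrb*, 0.387 for *Edn3* and 0.251 for *Ece2*. There *Edn1* (7.83 to 14.9 TPM) overlapped *Ednra* (8.96 to 10.6), *Ednra* overlapped *Ednrb* (5.01 to 8.97), and *Edn3* overlapped *Ece2*.

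**Figure D3:**
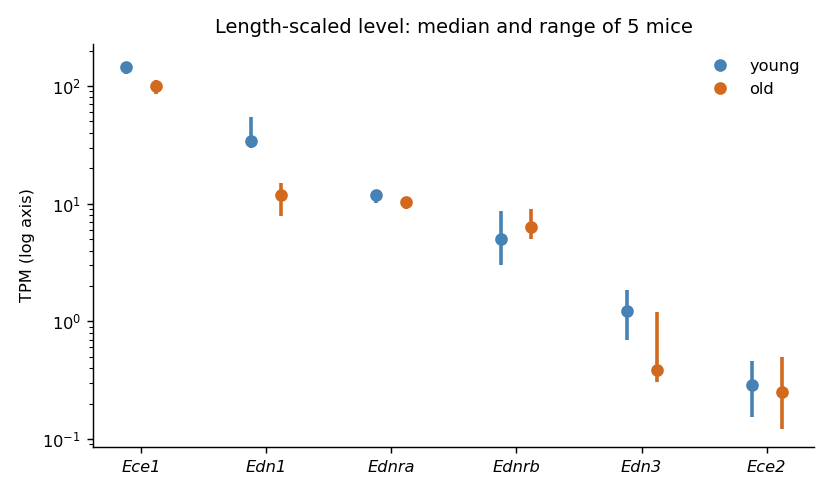
TPM (log axis) of the 6 endothelin genes in order of their young level, with points for the median and lines for the lowest to highest of 5 mice at each age. The young ranges of neighbouring genes stand apart, and in old aortae *Edn1*, with a median of 11.9 TPM, overlaps *Ednra*, with 10.4 TPM.

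Genes that process or clear endothelins beside the members moved in both directions. Of 13 such genes, 9 were tested, 2 were called higher and 1 lower, with a median log2 fold change of -0.10. Called genes made up 33.3% of those tested, against 11.5% of all tested genes. The gene called lower was *Mme*, neprilysin, a membrane peptidase that degrades endothelin-1. It had 540.4 ± 70.5 in young and 294 ± 56.1 in old aortae without overlap (log2 fold change -0.87, SE 0.13, edgeR adjusted p = 0.00101). Chymases include proteases that can also cut big endothelin-1, and whether the 2 mouse enzymes named next do so was not tested. The 2 genes called higher were the mast cell chymases *Mcpt4* (61.7 ± 21.6 and 142 ± 37.7, log2 fold change 1.21, edgeR adjusted p = 0.0106) and *Cma1* (38.6 ± 11.9 and 75.95 ± 26.6, 0.98, edgeR adjusted p = 0.0432). The ages overlapped for both, and the part of mast cell content in their levels was not tested. The call of *Cma1* was lost when any of young replicates 2, 4 or 5 or old replicates 1 to 4 was left out (edgeR adjusted p from 0.0509 to 0.101). *Mmp2*, a gelatinase and the gene of the list with the highest level per length, was not called (4214 ± 168 and 3598 ± 616, log2 fold change -0.22, edgeR adjusted p = 0.154) except without old replicate 3 (-0.33, edgeR adjusted p = 0.00281). *Furin*, which makes the first cut, had 2475 ± 112 and 2272 ± 118 (log2 fold change -0.12, edgeR adjusted p = 0.194) and was named after its value was seen.

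Of 30 genes that couple the receptors to contraction, 29 were tested, 2 were called higher and 1 lower, with a median log2 fold change of 0.01. These 3 are 10.3% of the tested genes of the list, against 11.5% of all tested genes. Without young replicate 1, 3 were called lower. *Gnaq*, the Gq subunit through which ETA activates phospholipase C, fell slightly and without overlap, from 2237 ± 71.9 to 1899.6 ± 127 (log2 fold change -0.23, SE 0.06, edgeR adjusted p = 0.0190). *Prkcb*, a protein kinase C, rose from 56.6 ± 12.05 to 117 ± 22.7 (1.05, edgeR adjusted p = 0.00267). *Plcb2*, a phospholipase C, rose from 7.86 ± 3.40 to 25.9 ± 15.8 (1.72, edgeR adjusted p = 0.0250), a call lost without young replicate 2, 4 or 5 or old replicate 2 or 3 (edgeR adjusted p from 0.0522 to 0.0676). It was also lost by limma-voom (adjusted p = 0.0510). *Plcb2* had 39 reads in all young and 131 in all old aortae, and its ages overlapped. *Prkcb* and *Plcb2* are also leukocyte genes. Of 10 macrophage markers 6 were called higher and 0 lower (60%, against 11.5% of all tested genes). Their summed level ranged from 8649 to 11639.9 in young and from 11724 to 23520.1 in old aortae. The number called higher was 2 without young replicate 2, 4 or 5 or without the filter on low counts, 3 without young replicate 3 or old replicate 2, and 9 by DESeq2. The part of these cells in both results was not tested. *Mylk*, the myosin light chain kinase and the highest of the list per length, was not called (0.16, edgeR adjusted p = 0.140).

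Of 11 genes that desensitise such receptors, 1 was called higher and 1 lower (median log2 fold change -0.0032). This is 18.2% of the list, against 11.5% of all tested genes. *Arrb2*, β-arrestin 2, rose from 306 ± 18.7 to 412 ± 61.1 (0.43, edgeR adjusted p = 0.0133). *Rgs4*, which shortens Gq and Gi signals, fell from 5112 ± 670.5 to 3299.7 ± 874 (-0.62, edgeR adjusted p = 0.0428), a call that was lost when any of young replicates 2 to 5 or old replicate 3 was left out (edgeR adjusted p from 0.0685 to 0.0956) and without the filter on low counts (0.138). Without young replicate 1, 2 genes of the list were called higher. *Rgs5*, the highest of the list per length, was not called (0.25, edgeR adjusted p = 0.494).

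Of 9 genes of the nitric oxide and prostacyclin arm linked to ETB, 1 was called higher and 2 lower (median log2 fold change -0.13). The share called was 33.3%, against 11.5% of all tested genes. *Ptgir*, the prostacyclin receptor, rose from 134 ± 16.7 to 285 ± 62.1 without overlap (log2 fold change 1.10, SE 0.15, edgeR adjusted p = 0.000459). *Cav1*, caveolin-1, which binds and restrains endothelial nitric oxide synthase, fell from 19366 ± 674 to 13856 ± 943 (-0.47, SE 0.06, edgeR adjusted p = 0.000477). *Gucy1b1*, a subunit of the nitric oxide receptor guanylate cyclase, fell from 5929 ± 544 to 4849 ± 148 (-0.28, edgeR adjusted p = 0.0155). *Nos3*, the synthase itself, had 1636 ± 299 and 1076 ± 350 and was not called (-0.60, edgeR adjusted p = 0.110), but was called lower without old replicate 2 (-0.80, edgeR adjusted p = 0.0223) and by DESeq2 (adjusted p = 0.0207). *Ptgis*, prostacyclin synthase, was not called either (0.08, edgeR adjusted p = 0.679).

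Of 19 transcription factors known to act on *Edn1*, 1 was called higher and 4 lower, and the median log2 fold change was -0.24. Called genes made up 26.3% of the list, against 11.5% of all tested genes. The called genes were *Foxo1* and 4 of the AP-1 subunits in the list, *Fosb*, *Fosl2*, *Jund* and *Junb*. Its other AP-1 subunits were not called by edgeR, namely *Jun* (-1.10, edgeR adjusted p = 0.0845), *Fos* (-0.39, 0.626) and *Fosl1* (0.10, 0.908). Neither were *Gata2* (-0.37, 0.125) and *Gata6* (-0.14, 0.228). *Fosb* (-1.16, edgeR adjusted p = 0.0337), *Fosl2* (-0.71, edgeR adjusted p = 0.0309) and *Jund* (-0.45, edgeR adjusted p = 0.00723) fell, whereas *Junb* rose from 1181 ± 260.3 to 2009 ± 369.8 (0.77, edgeR adjusted p = 0.00957). *Foxo1* fell from 1846 ± 123 to 1390.1 ± 75.0 without overlap (-0.40, edgeR adjusted p = 0.00109). The number called lower was 7 by DESeq2 and 2 without young replicate 3 or 4, without old replicate 1, or without the filter on low counts. *Fosl2* lost its call in these 3 omissions and without old replicate 2 (edgeR adjusted p from 0.0548 to 0.0732), and *Fosb* in these 3 and without old replicate 3 or 5 (from 0.0607 to 0.0776).

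AP-1 genes also respond to handling of tissue, so 12 immediate early genes were read beside them. Of these, 1 was called higher (*Junb*) and 2 lower (*Fosb* and *Atf3*), with a median log2 fold change of -0.24. That is 25% of the 12, against 11.5% of all tested genes. *Fos*, *Fosb*, *Jun* and *Junb* are also in the list of transcription factors above. The calls of *Junb* and *Fosb* are thus the same results in both lists. *Atf3* fell from 2725 ± 1246 to 557 ± 194 (-2.28, edgeR adjusted p = 0.00596). The sum of the 12 genes ranged from 19769 to 41137 in young and from 16203 to 30094 in old aortae, and the mean log2 level differed by -0.32 (exact permutation p = 0.190). Without young replicate 1, 2 of the 12 were called higher. Relative to the mean log2 level of these genes, *Edn1* differed by -1.39 (exact permutation p = 0.0079), a comparison added after the data were seen. The part of handling in the level of *Edn1* was not tested.

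**Figure D4:**
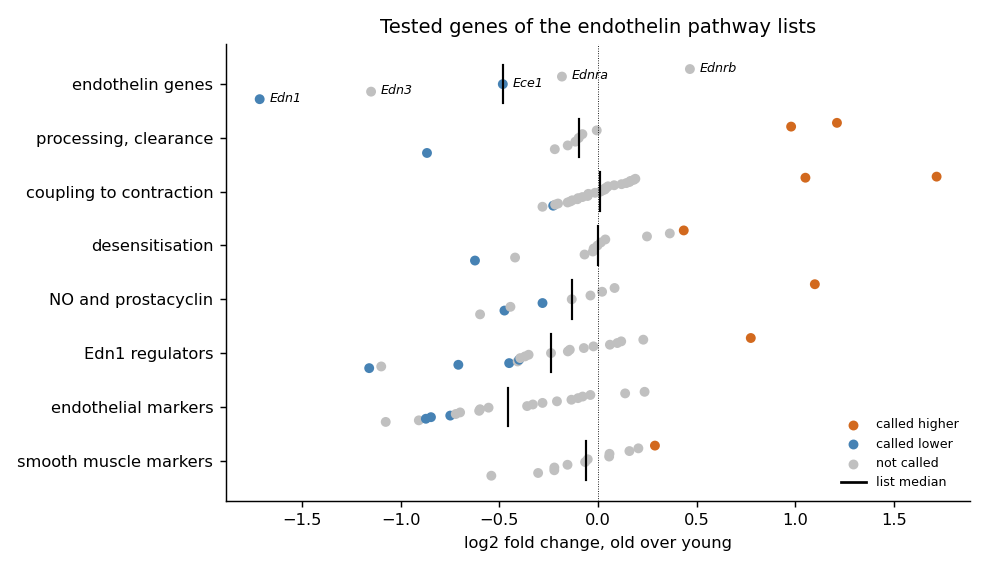
Log2 fold change (old over young, horizontal axis) of the tested genes in the endothelin set, in 5 lists of the pathway, and in the endothelial and smooth muscle marker lists, 1 point per gene, colored by call; the black line is the median of the list. *Edn1* at -1.72 and *Ece1* at -0.48 are the called members, the endothelial markers center at -0.46, and the coupling and smooth muscle lists center near 0.

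Among mice of the same age, each member had genes that varied with it, described here over the deviations of 10 mice from their age mean and 11054 genes with a mean of at least 100 normalized counts. All points share library depth and tissue makeup. The closest of so many genes over so few mice have a high r for any gene, and no chance level was computed. The closest genes to *Edn1* were *Hid1* (Pearson r = 0.95), *Snx30* (0.94) and *Celsr1* (0.94), of which *Celsr1* was also called lower in old aortae (171 ± 39.1 and 84.0 ± 20.2, log2 fold change -1.02, edgeR adjusted p = 0.00571). Those of *Edn3* were *Fam84a* (r = 0.96), *Cfap298* (0.95) and *C1qtnf6* (0.94), which had r of 0.84, 0.86 and 0.86 without the 2 mice farthest from the median. *C1qtnf6* was called lower, from 960.0 ± 76.1 to 541 ± 76.6 (-0.82, edgeR adjusted p = 0.000165). Those of *Ednra* were *Ctps2*, *Ankmy2* and *Ssx2ip* (r from 0.93 to 0.96), those of *Ednrb* were *Tmem53*, *Abcd2* and *Mgst1* (0.95 to 0.98), and those of *Ece1* were *Prkce*, *Fnbp1l* and *Plcg2* (0.89 to 0.93). None of these 9 was called. Among the members, *Edn1* and *Ece1* deviated most alike (Pearson r = 0.75, Spearman rho = 0.70), followed by *Edn1* and *Ednra* (0.66 and 0.68). Without the 2 farthest mice the order turned, with r of 0.54 for *Edn1* and *Ece1* and 0.67 for *Edn1* and *Ednra*.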

How the data were processed

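Per the labels and the study's methods, the authors made poly(A) libraries with a stranded kit, removed reads shorter than 35 bases with fastp 0.20.0, aligned with STAR 2.7.0f to GRCm38 with GENCODE annotation and counted reads per gene with featureCounts (Subread 1.6.4). The deposited values are these raw counts per gene symbol, without normalization. The strand setting of the counting and the handling of reads with several alignments are not given in the sources used here.

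From these counts, genes were filtered with filterByExpr and compared by age with edgeR 4.0.16 (quasi-likelihood F test, robust, TMM, no covariate) in R 4.3.3, with Benjamini-Hochberg adjustment over 14614 genes. Normalized counts used DESeq2 1.42.0 size factors. TPM used exonic lengths of GENCODE M21 on GRCm38, in which 54471 of 55453 symbols matched by name. Levels relative to markers were differences of log2(normalized count + 0.5), tested over all 252 splits into 5 and 5 mice, where the smallest p is 0.0079. Correlations are descriptive. Promoter letters came from RefSeq (GRCm38.p6), with at least 1 window for every member.

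The members and lists were chosen with earlier results of these data known. Named genes were the members, *Edn2*, *Mme*, up to 4 called genes per direction with the smallest p in each pathway list and its gene with the highest level per length, up to 2 per direction in the endothelial, smooth muscle and immediate early lists, and the 3 genes most alike each tested member. *Ptprb*, *Nos3*, *Furin*, *Mlana*, *Mitf*, the unmeasured melanocyte markers, *Flt1*, *Erg* and *Emcn* fall outside that rule and were named after their values were seen. The same holds for *Jun*, *Fos*, *Fosl1*, *Gata2* and *Gata6*.

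Alternatives were DESeq2, limma-voom (limma 3.58.1), other scaling, other filters, the replicate number as a block, and omission of each mouse in turn. Counts of libraries of the same age differed 8.06 to 58.8 times more than counting error gives (chi-square over degrees of freedom, 20 pairs), so no library was a copy of another.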

Additional observations from a re-analysis of the deposited data

Results flagged for a closer look

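In 6 of 98 groups of 5 mice (6.12%), 1 mouse stood apart from the other 4 by Dixon's criterion, which chance alone meets in about 1 of 20 groups. The groups include genes picked for varying with a member over these same mice, so the 6 are not independent of each other. *Edn3* in old replicate 3 had 30.8 normalized counts, against 7.78 to 11.0 in the other old mice. *Mmp2* in the same mouse had 4676, against 3150.3 to 3496. *Fam84a* had 722 in that mouse, against 332 to 431. It was picked as the gene most alike *Edn3* over these same mice, so its high value there follows from that choice. *Junb* in old replicate 2 had 2668, against 1785 to 1876. *Ankmy2*, picked for varying with *Ednra*, had 806 in old replicate 2, below the 882 to 899 of the other old mice. *Abcd2* in young replicate 1 had 414, against 112 to 187, in the mouse with the highest young *Ednrb*. It was picked for varying with *Ednrb*, so this match also follows from the choice.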

How the results depend on the processing

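*Edn1* and *Ece1* kept their direction and their call under every scaling, filter, tool, block and omission run, with log2 fold changes of -1.80 to -1.56 and -0.56 to -0.42 when 1 mouse was left out. *Ednra* and *Ednrb* stayed without a call throughout (-0.23 to -0.13 and 0.32 to 0.74 with 1 mouse left out). *Edn3* was called by DESeq2 (-1.17), by limma-voom (-1.25) and without old replicate 3, and ranged from -1.71 to -0.95 over omissions. The cause of the differences between tools was not tested. For *Ece2*, only DESeq2 gave a further value (-0.16), and the other planned fits were not run, since the gene is below their filter. With 1 mouse left out, the relative levels ranged from -1.35 to -1.09 for *Edn1* and from 0.78 to 1.12 for *Ednrb* over endothelial markers, from -0.21 to -0.03 for *Ednra* over smooth muscle markers, and from 0.53 to 0.87 for *Ednrb* over *Ednra*. Against *Emcn* alone the difference for *Edn1* was -0.53 and no longer passed.

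The number of genes called was 1132 to 2367 with 1 mouse left out, and 474 to 1139 for those called lower, the extremes of the latter being without young replicate 4 and without young replicate 1. Replicate numbers were shared by the titles of young and old mice, but deviations of same-numbered mice correlated between -0.29 and 0.13, and 2 of 5 mice correlated best with their own number, so the numbers were not taken as pairs. With the replicate block, 467 genes were called lower and 794 higher, against 729 and 947 without it. Under the block, *Ece1* had -0.49 (edgeR adjusted p = 0.0213), and the exact sign-flip tests of *Edn1* (-1.24) and *Ednrb* (0.98) over endothelial markers gave p = 0.0625, the smallest that 5 pairs allow. Of 612 counts per list and setting, 532 equalled the reported count or were within 1.5 times of it, and the rest moved further. The block also ended 10 calls of named genes, those of *Cma1*, *Gnaq*, *Rgs4*, *Fosl2*, *Fosb*, *Atf3*, *Tek*, *Icam2*, *Ptprb* and *Smtn* (edgeR adjusted p from 0.0515 to 0.178), which left 2 of the transcription factors known to act on *Edn1* and 0 endothelial markers called lower. At 3.89 to 47.0 normalized counts per mouse, depth limits *Edn3* and *Ece2* most.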

Other observations

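The remaining marker lists describe the wall around these genes. Of 10 adventitial fibroblast markers, 1 was called higher and 2 lower (median log2 fold change -0.06), and 2 were higher without old replicate 1. With all mice the share called was 30%, against 11.5% of all tested genes. Of 7 T cell markers, 3 were tested and 2 called higher (66.7% of those tested, against 11.5% of all tested genes). The summed level of the 7 ranged from 13.1 to 68.5 in young and from 49.97 to 203 in old aortae. Of 6 B cell markers, 4 were tested and 0 called by edgeR (median 1.32). The 8 adipocyte markers had a median of -0.92 with 0 called, and the 5 red cell genes had a median of -0.0029 with 0 called. None of 6 mesothelial markers had enough counts to be tested. *Ecel1*, a relative of the converting enzymes that was too low to be tested and is named after its values were seen, had 2.05 to 4.09 normalized counts in young and 6.75 to 14.0 in old aortae, without overlap. These values rest on 17 reads in all young and 57 in all old aortae. Across all tested genes, 9.92% had groups without overlap.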
